A study of Mus musculus with 25 samples.

Results

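*Gpnmb*, *Vgll3* and *Insrr* were the 3 genes with the largest rise from 6w+dox to 12w+dox among genes whose mice did not overlap between these groups, in pituitaries of sh*Rb* mice during tumor progression. They were 3 of 15315 genes listed for the long-term experiment and 3 of 14007 listed for the short-term experiment. The members had been chosen as genes that rise most from 6w+dox to 12w+dox, and the ranking that places them was made afterwards. A gene entered this ranking if it was called higher at 12w+dox (limma, adjusted p below 0.05 and a change above 1 on the log2 scale) and if every 12w+dox mouse lay above every 6w+dox mouse. A total of 434 genes met both conditions. The members were thus selected on their values at 6w+dox and 12w+dox, which are given as a description only.

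All mice carried the reverse Tet transactivator M2-rtTA, driven by the Rosa26 promoter, and a miR-E shRNA against *Rb1* (RB, a brake on cell cycle entry), linked to GFP and placed at the *Col1a1* locus. The mouse line came from 1 embryonic stem cell clone, and doxycycline (dox) in the drinking water of young adults switched the shRNA on. In the long-term experiment, pituitaries were taken after 6 weeks on dox (6w+dox, 3 females), after 12 weeks on dox (12w+dox, 2 females and 2 males), or after 6 weeks on and then 6 weeks off dox (12w-res, 3 females and 2 males). In the short-term experiment, tumors were taken after 16 weeks on dox (16w+dox, 3 males), and 1 day (1d-dox, 4 females), 3 days (3d-dox, 3 males) or 5 days (5d-dox, 3 females) after dox was withdrawn at 16 weeks. No pituitary without dox was among the samples analysed here.

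GPNMB is a transmembrane glycoprotein of lysosomes and the cell surface, known in pigment cells, osteoclasts and macrophages that take up lipid or debris, and its transcription responds to the MITF/TFE factors. VGLL3 belongs to the vestigial-like cofactors, which bind the TEAD transcription factors, the same partners that the Hippo pathway effectors YAP and TAZ use. INSRR, the insulin receptor-related receptor, is a receptor tyrosine kinase close to the insulin and IGF1 receptors, but it does not bind insulin and is activated by an alkaline medium, with a known role in bicarbonate handling in the kidney.

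The site in *Rb1* that the shRNA matches is shown because knockdown through it is what dox switches on. It lies at chr14:73206076-73206096 (GRCm38, minus strand), in the coding part of exon 22 of 27, and an exact match was found in the transcripts of 1 gene.
*Rb1* shRNA target site: gaggagtttgattccattata

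The promoters of the members are shown because *Gpnmb* and *Vgll3* moved together in the long-term experiment, and because the named factors act through short motifs that can be looked for. The 250 bases before the RefSeq start (GRCm38.p6, plus strand) were at hand for 2 of the 3 members, at chr6:49036268-49036517 for *Gpnmb* and at chr16:65814939-65815188 for *Vgll3*. Capitals mark the TEAD motif GGAATG, read on the other strand as CATTCC.
*Gpnmb* promoter: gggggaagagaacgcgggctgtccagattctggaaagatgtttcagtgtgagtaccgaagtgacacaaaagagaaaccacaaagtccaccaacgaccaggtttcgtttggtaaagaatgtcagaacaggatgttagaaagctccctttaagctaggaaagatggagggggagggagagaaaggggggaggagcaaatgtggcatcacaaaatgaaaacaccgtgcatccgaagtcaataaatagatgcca
*Vgll3* promoter: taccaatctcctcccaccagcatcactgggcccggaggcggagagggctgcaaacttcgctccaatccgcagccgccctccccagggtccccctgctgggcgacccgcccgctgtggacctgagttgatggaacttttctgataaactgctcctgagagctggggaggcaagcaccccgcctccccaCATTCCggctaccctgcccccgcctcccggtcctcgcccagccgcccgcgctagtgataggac

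The *Vgll3* window held this motif once, 63 to 58 bases before the start, and 12.6% of 32851 mouse promoter windows of the same length held it on either strand. The *Gpnmb* window held none of the motifs searched on either strand, which were GGAATG for TEAD, CATGTG and CACGTG for MITF/TFE factors, TGACTCA for AP-1, and TTTCCCGC, TTTGGCGC, TTTCGCGC and TTTGCCGC for E2F. Of all promoter windows, 12.3% held CATGTG, 6.02% held CACGTG, 4.46% held TGACTCA and 1.86% held an E2F motif.

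*Gpnmb* spans chr6:49036518-49058182, *Vgll3* spans chr16:65815189-65866368 and *Insrr* spans chr3:87796908-87816101 (GRCm38, all on the plus strand). No other GENCODE gene overlapped *Gpnmb* or *Vgll3*. *Pear1*, a gene on the minus strand, spans *Insrr*, with 0 of 61 *Pear1* exons inside it, and reads of these genes are taken up below.

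Values are in FPM, the deposited unit, which counts fragments scaled by the authors to a common library size with DESeq2 size factors. The long-term libraries were enriched for polyA RNA and held 19066053 to 28968476 reads on genes, and the short-term libraries were depleted of rRNA and held 9573101 to 13036900 reads on genes. The tables were normalized separately, so levels are ordered only within one of them. *Rb1* itself had a mean of 3.16 FPM ± 1.70 (SD, n = 3) after 6 weeks and 3.21 ± 0.70 (n = 4) after 12 weeks of dox, and of 18.2 ± 1.66 (n = 5) in the restored mice. In the short-term experiment *Rb1* averaged between 4.19 and 5.12 FPM in all 4 groups, while the GFP that reports shRNA transcription fell from 1247 FPM ± 192 at 16w+dox to 11.7 ± 3.08 at 5d-dox. *Pomc*, the hormone precursor of melanotrophs and corticotrophs, took 12.9 to 43.2% of gene reads in the long-term libraries and 4.96 to 17.9% in the short-term libraries.

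**Figure D1:**
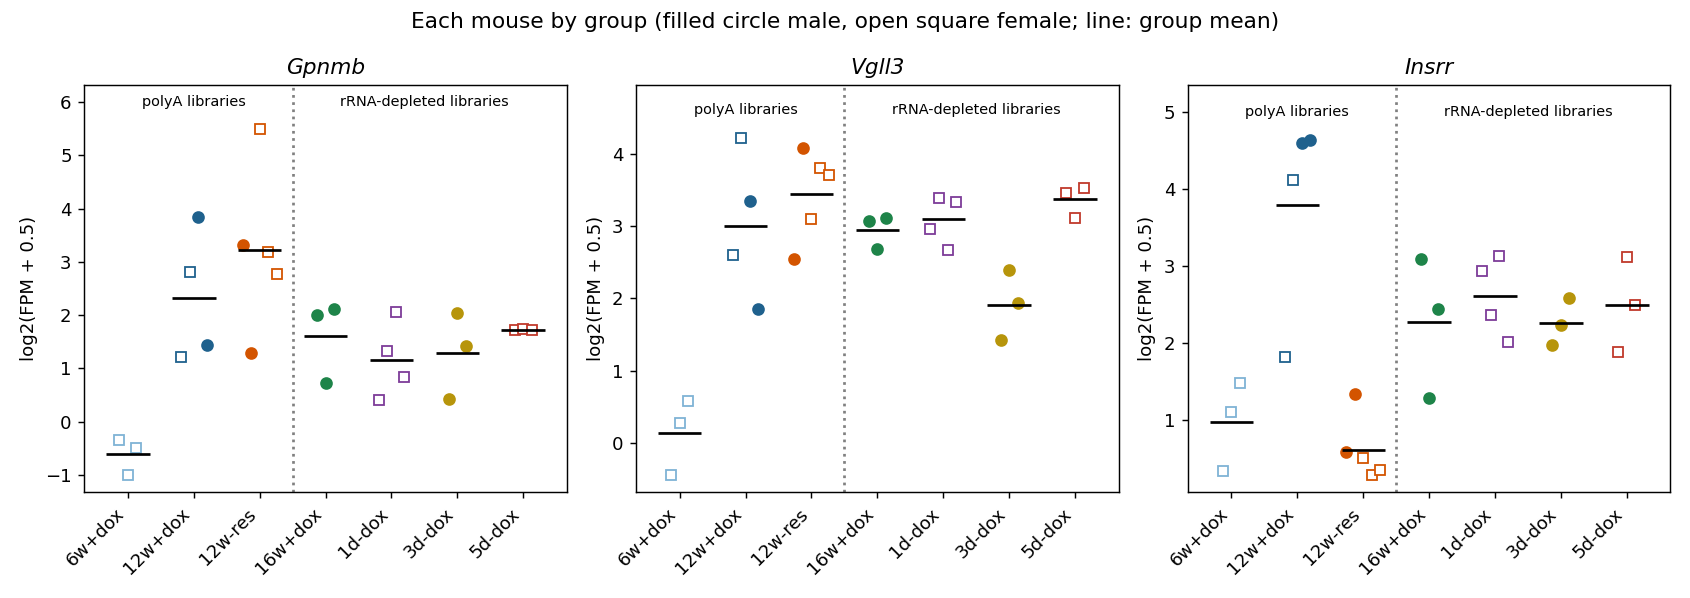
Levels of *Gpnmb*, *Vgll3* and *Insrr* as log2(FPM + 0.5) in each of 25 mice, by group, in the long-term (polyA) and short-term (rRNA-depleted) experiments. Black marks show the mean of the log2 values in each group. Among the long-term groups, *Gpnmb* and *Vgll3* are lowest at 6w+dox and higher both at 12w+dox and in 12w-res. *Insrr* lies between 0.708 and 2.01 FPM in 12w-res, below all 12w+dox mice.

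*Gpnmb* was near the detection limit at 6w+dox and was higher both at 12w+dox and in 12w-res. The 12w-res mice left dox at 6 weeks and did not pass through 12 weeks on dox. A return from the 12w+dox level was therefore not measured in the long-term experiment. At 6w+dox, *Gpnmb* was at 0.291, 0 and 0.207 FPM, which is 0 to 5 reads per mouse, and the mouse at 0 reads allows up to 0.134 FPM. At 12w+dox it was at 1.81, 6.53, 13.8 and 2.21 FPM (52 to 447 reads). Every 12w+dox mouse lay above every 6w+dox mouse, although the 12w+dox mice themselves spread widely, with both a female and a male at the low end.

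In 12w-res, *Gpnmb* was at 9.46, 1.95, 44.6, 8.62 and 6.35 FPM. The restored mice overlapped the 12w+dox mice, and 1 female stood far above the rest. The group mean was 14.2 FPM ± 17.3 (SD, n = 5), against 6.60 ± 3.36 (n = 4) without that mouse and 6.08 ± 5.55 (n = 4) at 12w+dox.

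*Vgll3* followed the same course with less spread. It was at 0.233, 0.713 and 0.993 FPM at 6w+dox, at 5.58, 18.2, 9.64 and 3.10 FPM at 12w+dox, and at 5.36, 16.5, 8.10, 13.5 and 12.6 FPM in 12w-res. All 9 mice of the later groups lay above all 3 at 6w+dox, and the 12w+dox and 12w-res mice were interleaved. The means were 0.646 ± 0.385, 9.12 ± 6.60 and 11.2 ± 4.44 FPM.

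*Insrr* was higher at 12w+dox than at 6w+dox, as the others were, but in 12w-res it was low, near the 6w+dox level. It was at 0.757, 1.65 and 2.28 FPM at 6w+dox and at 3.00, 16.9, 23.7 and 24.4 FPM at 12w+dox, where 1 female lay close to the 6w+dox range and both males were highest. In 12w-res it was at 0.988, 2.01, 0.910, 0.708 and 0.774 FPM. All 5 restored mice lay below all 4 mice kept on dox and overlapped the 6w+dox mice. The means were 1.56 ± 0.764 at 6w+dox, 16.99 ± 9.92 at 12w+dox and 1.08 ± 0.531 FPM in 12w-res.

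Set per kilobase of transcript, so that genes can be compared, *Insrr* stood at percentile 8.43 of the listed genes at 6w+dox, at 39.5 at 12w+dox and at 5.59 in 12w-res. *Vgll3* stood at percentiles 2.08, 24.2 and 27.5 in the same order, and *Gpnmb* at 0.825, 27.3 and 44.2. The members were therefore low among listed genes before progression and below the median afterwards.

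For the contrast that chose them, the fitted changes were 2.94 on the log2 scale (SE 0.77) for *Gpnmb*, 2.87 (SE 0.48) for *Vgll3* and 2.82 (SE 0.55) for *Insrr*, on log2(FPM + 0.5), which understates changes of low genes. The ratios of group means, 12w+dox over 6w+dox, were 36.6, 14.1 and 10.9, respectively. Of 15315 genes tested, 3.15% were called higher and 4.04% lower in this contrast. The members were among those called higher, having been chosen for a large rise.

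The 3 genes just outside were *Arg1*, the arginase of the urea cycle and of macrophages (2.72, SE 0.35, from 1.19 to 10.7 FPM), *Fn1*, the matrix protein fibronectin (2.61, from 5.86 to 44.2 FPM), and *Rtp2*, a receptor transporter protein (2.55, from 1.53 to 11.6 FPM). *Rab6b*, a Golgi trafficking GTPase, had a larger fitted rise of 3.53 and stands outside the ranking because its mice overlapped. The members thus sit at the top of a continuous series and are not set apart by a gap.

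Sex was not balanced in this contrast, since 6w+dox held females only. Within females, *Vgll3* was at 5.58 and 18.2 FPM at 12w+dox, *Gpnmb* at 1.81 and 6.53, and *Insrr* at 3.00 and 16.9, all above the 3 females at 6w+dox. Markers of other cells moved with the same contrast: the summed level of 8 markers of other hormone cells went from 58647 to 94085 FPM at 6w+dox down to a range of 1217 to 13007 FPM, and 5 of the 8 were called lower. For 6 neural lobe markers, the sum was 50.2 to 141 FPM and then 6.995 to 16.2, with 5 of 6 called lower. The part of these shifts in the members' rise was not tested, and in bulk tissue fewer cells of a type and less RNA per cell cannot be told apart.

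The comparison of 12w-res with 12w+dox sets mice with RB restored against mice kept on dox, taken as long after the start of dox. It asks whether a gene differs between them, not whether it falls from its 12w+dox level, which the restored mice did not pass through. Of the members, 1 of 3 was called lower and none higher, where 5.04% of all genes were called lower and 6.24% higher. *Insrr* was lower by a fitted change of -3.19 on the log2 scale (SE 0.48, 95% interval -4.22 to -2.15, limma with Benjamini-Hochberg adjusted p = 1.96e-04), with a mean 15.8 times higher at 12w+dox. An exact two-sided permutation test over the 9 mice gave p = 0.00794, the smallest that 5 against 4 mice allow. Because the 12w+dox mice were used to choose a gene that is high in them, this p favours a lower level in 12w-res.

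*Vgll3* differed by 0.45 (SE 0.43, 95% interval -0.46 to 1.36, limma adjusted p = 0.432), a value smaller than the spread between mice. *Gpnmb* differed by 0.89 (SE 0.68, 95% interval -0.56 to 2.34, limma adjusted p = 0.319), and by 0.32 without the mouse at 44.6 FPM. For both genes the interval holds a higher as well as a lower level in 12w-res. Neither interval reaches a difference below 0 as large as the fitted rise from 6w+dox to 12w+dox.

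The comparison of 12w-res with 6w+dox asks whether the restored pituitary looks like the one at the time of dox withdrawal. Here 2 of 3 members were called higher, where 5.81% of all genes were called higher and 5.82% lower. *Vgll3* was higher by 3.31 (SE 0.46, 95% interval 2.32 to 4.31, limma adjusted p = 1.13e-04), 17.3 times by the ratio of means. *Gpnmb* was higher by 3.83 (SE 0.74, 95% interval 2.25 to 5.41, limma adjusted p = 0.00133), 85.6 times by the ratio of means, a ratio that rests on 0 to 5 reads per mouse at 6w+dox. In both, 5 of 5 restored mice lay above all 3 others, and the exact two-sided permutation test gave p = 0.0179, the smallest that 5 against 3 mice allow.

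*Insrr* differed from 6w+dox by -0.37 (SE 0.53, 95% interval -1.495 to 0.77, limma adjusted p = 0.624), and the mice overlapped. The interval does not exclude a level below or modestly above that at 6w+dox. The 3 long-term contrasts share mice, and the 6w+dox mice were also used to choose genes that are low in them, so the calls for *Gpnmb* and *Vgll3* against 6w+dox are favoured by the choice.

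**Figure D2:**
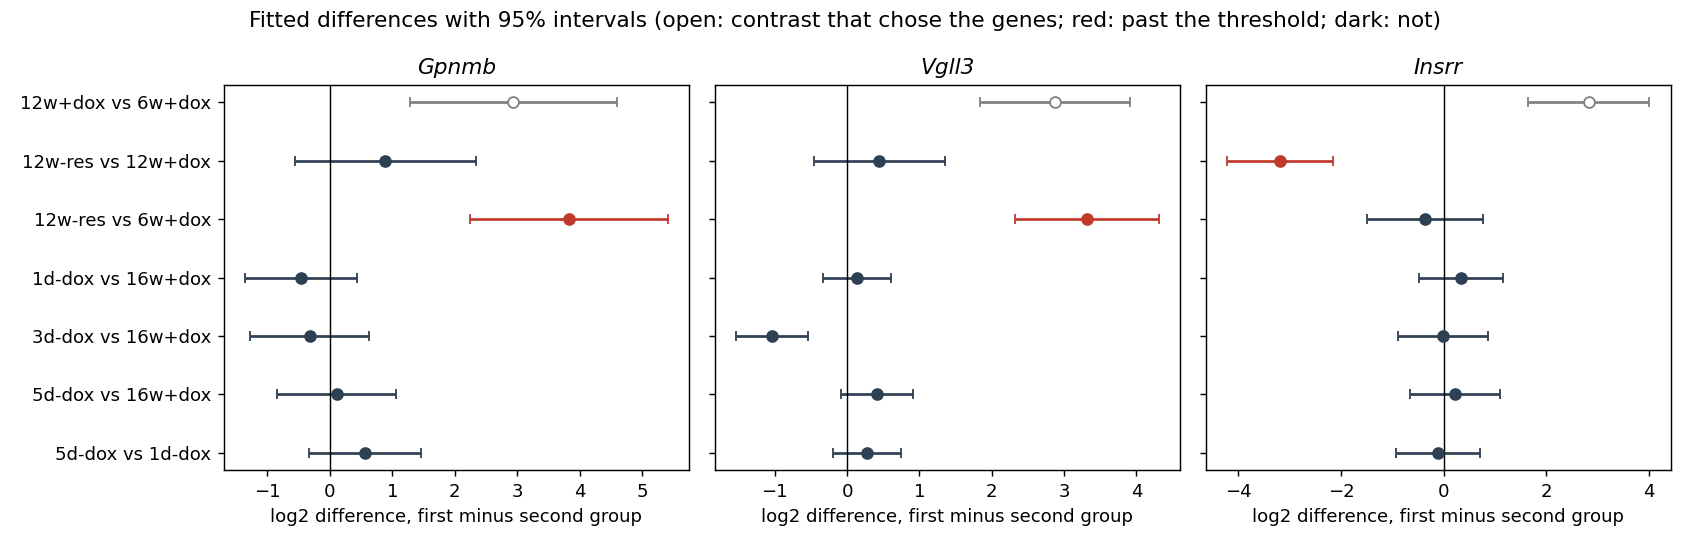
Fitted log2 change of each member in the 3 long-term and 4 short-term contrasts, with 95% intervals, on log2(FPM + 0.5). *Insrr* has the interval below 0 in 12w-res against 12w+dox (-4.22 to -2.15), while the *Gpnmb* and *Vgll3* intervals there span 0.

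*Mki67*, a proliferation antigen named here after its values were seen, was at 122 to 177 FPM at 6w+dox, 75.2 to 148 at 12w+dox and 8.06 to 12.9 in 12w-res. The ranges at 6w+dox and 12w+dox overlapped. *Insrr* and *Mki67* were both lower in 12w-res than at 12w+dox, while at 6w+dox *Insrr* was low and *Mki67* was not.

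In the short-term experiment, with tumors already grown for 16 weeks on dox, all 3 members were detected in every mouse and none was called in any contrast. Of all genes tested against 16w+dox, 0.0430% were called after 1 day off dox, 0.129% after 3 days and 0.193% after 5 days, and 0.0143% were called between 5d-dox and 1d-dox. These mice played no part in choosing the genes. Only females were sampled at 1d-dox and 5d-dox and only males at 16w+dox and 3d-dox, so for the contrasts of 1d-dox and 5d-dox with 16w+dox, sex and time off dox cannot be told apart.

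*Insrr* was at 8.01, 1.92 and 4.90 FPM at 16w+dox, at 7.14, 4.64, 8.25 and 3.53 at 1d-dox, at 3.41, 4.202 and 5.48 at 3d-dox, and at 3.17, 8.15 and 5.12 at 5d-dox. All groups overlapped. Between the males, 3d-dox differed from 16w+dox by -0.01 on the log2 scale (SE 0.41, 95% interval -0.89 to 0.87, limma adjusted p = 0.996), and between the females 5d-dox differed from 1d-dox by -0.12 (SE 0.38, 95% interval -0.94 to 0.71, limma adjusted p = 0.966). Neither interval reaches a difference as large as that of *Insrr* between 12w-res and 12w+dox, which was measured in other mice with another library type. *Rb1* also differed less: its mean at 3d-dox was 1.19 times that at 16w+dox, against 5.66 times for 12w-res over 12w+dox. It was not called in any short-term contrast, so these contrasts do not measure *Insrr* with RB restored.

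*Gpnmb* was at 3.52, 1.15 and 3.85 FPM at 16w+dox, at 0.825, 2.02, 3.64 and 1.29 at 1d-dox, at 0.847, 3.59 and 2.18 at 3d-dox, and at 2.78, 2.83 and 2.81 at 5d-dox. The groups overlapped throughout, and the 5d-dox mice were close to each other. Among males it differed by -0.32 (SE 0.45, 95% interval -1.28 to 0.63, limma adjusted p = 0.761) and among females by 0.57 (SE 0.42, 95% interval -0.32 to 1.46, limma adjusted p = 0.836).

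*Vgll3* was at 7.89, 5.93 and 8.12 FPM at 16w+dox, at 7.30, 10.02, 5.88 and 9.64 at 1d-dox, at 2.17, 4.75 and 3.31 at 3d-dox, and at 10.5, 8.18 and 11.1 at 5d-dox. All 3 mice at 3d-dox lay below all mice of the other short-term groups. Against 16w+dox, also male, the difference was -1.04 (SE 0.23, 95% interval -1.54 to -0.54, limma adjusted p = 0.0724), with a mean 2.14 times higher at 16w+dox. It missed the threshold after adjustment over 13958 genes, as it did in 9 of 10 alternatives and in 12 of 13 runs with a mouse left out. It passed only with DESeq2 (-1.10, adjusted p = 0.00340) and without 3d-dox replicate 2 (-1.28, limma adjusted p = 0.0290). The exact two-sided permutation test gave p = 0.1, the smallest that 3 against 3 mice allow.

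Of 6 melanotroph and corticotroph markers, none was called at 3d-dox against 16w+dox by limma, with 2 above and 4 below 0 and a median of -0.23. One of them, *Pomc*, named after its values were seen, was at 34394 to 36965 FPM at 16w+dox and at 11837 to 28065 at 3d-dox, without overlap, although its limma adjusted p was 0.367. The sum of other hormone cell markers was 199 to 253 FPM at 16w+dox and 170 to 892 at 3d-dox. Their part in the *Vgll3* difference was not tested.

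At 5d-dox, *Vgll3* was above all 3 mice at 16w+dox, by 0.42 (SE 0.23, limma adjusted p = 0.458), and differed from 1d-dox by 0.28 (SE 0.22, limma adjusted p = 0.854). The order of *Vgll3* means was 3d-dox, 16w+dox, 1d-dox and 5d-dox, and only the first 2 neighbours were without overlap. For *Gpnmb* the order was 1d-dox, 3d-dox, 5d-dox and 16w+dox, and for *Insrr* 3d-dox, 16w+dox, 5d-dox and 1d-dox, with overlap between all neighbours. In the long-term experiment, the order was 6w+dox, 12w+dox and 12w-res for *Gpnmb* and *Vgll3* and 12w-res, 6w+dox and 12w+dox for *Insrr*, and of these neighbours only 6w+dox and 12w+dox did not overlap.

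*Gpnmb* is a gene of phagocytes as well as pigment cells, and macrophage markers were looked at beside it. Their summed level over 18 markers was 174 to 248.9 FPM at 6w+dox, 235 to 340 at 12w+dox and 410 to 766 in 12w-res, and no marker was at 0. In 12w-res the mouse with 44.6 FPM of *Gpnmb* had the highest sum, 766 FPM, and the mouse with 1.95 FPM had the lowest, 410. At 12w+dox the mouse with the most *Gpnmb*, 13.8 FPM, had the lowest sum of its group, 235 FPM. The part of macrophages in the level of *Gpnmb* was not tested.

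**Figure D3:**
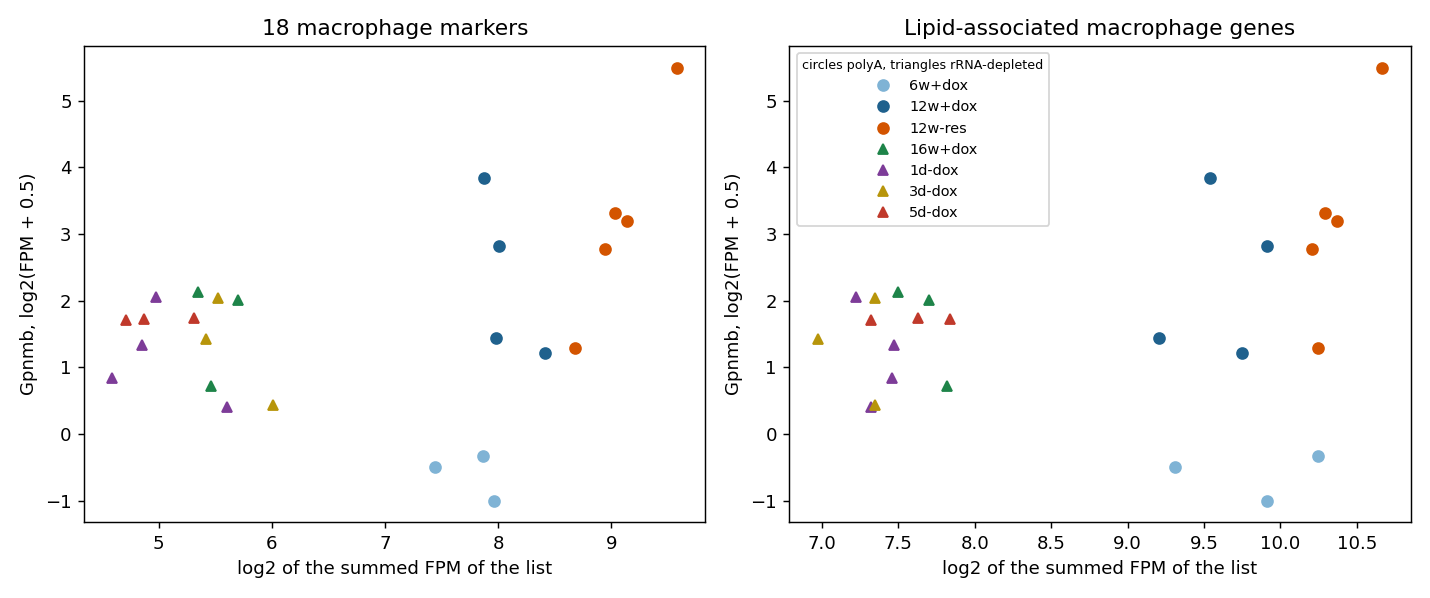
*Gpnmb* as log2(FPM + 0.5) against the log2 of the summed FPM of 18 macrophage markers (left) and of 12 lipid-associated macrophage genes (right), 1 point for each of 25 mice, colored by group, with circles for polyA and triangles for rRNA-depleted libraries. On the left the 12w-res mice hold the highest sums, between 410 and 766 FPM, and the mouse highest in *Gpnmb* lies farthest right.

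Of these 18 markers, 5 were called higher and 1 lower in 12w-res against 12w+dox, with a median change of 0.78, where the median over all genes was -0.00. *Lyz2*, lysozyme, went from 59.3 to 188 FPM (1.60), and *Cd163*, a scavenger receptor, from 8.05 to 2.87 FPM (-1.35). Against 6w+dox, 6 of 18 were called higher, led by *Lyz2*, which was at 11.2 FPM there (3.94, limma adjusted p = 4.72e-08). From 6w+dox to 12w+dox, 1 of 18, *Lyz2* (2.34), was called higher.

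Among 12 tested genes of lipid-associated macrophages, 4 were called higher and none lower in 12w-res against 12w+dox, with a median of 0.89. *Spp1*, osteopontin, was at 37.0 FPM ± 20.97 at 12w+dox and 198 ± 102 in 12w-res (2.40, limma adjusted p = 1.82e-04), and *Axl*, *Lgals3* and *Cd9* were higher by 1.15, 1.13 and 1.02. Against 6w+dox, 6 of 12 were called higher, with a median of 0.99, among them the fatty acid receptor *Cd36*, from 1.83 to 14.1 FPM (2.31), and the pattern receptor *Clec7a* (1.54). *Clec7a* was the 1 gene of the list called higher at 12w+dox against 6w+dox (1.08).

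Of 34 MITF/TFE and lysosome genes, 1 was called higher from 6w+dox to 12w+dox, the acid lipase gene *Lipa* (1.05), a share near the 3.15% of all genes, and the median was 0.04. Counts ranged from 0 to 3 over the alternatives. No gene of this list was called lower, and 19 changes were above 0 and 15 below. *Cd63* (-0.89, limma adjusted p = 0.00939), *Ctsz* (-0.92, 0.0203) and *Tfe3* (-0.37, 0.0255), named after their values were seen, were lower without overlap but by less than the size needed for a call. In 12w-res, 4 of 34 were called higher than at 12w+dox, including the cathepsin genes *Ctsl* (199 to 443 FPM, 1.17) and *Ctsk* (1.16) and the galactosidase gene *Gla* (1.12). Against 6w+dox, 6 of 34 were called higher, with *Lipa* from 5.14 to 17.9 FPM (1.65) and *Mitf* itself from 4.51 FPM ± 0.0855 to 9.82 ± 0.323 (1.04, limma adjusted p = 2.74e-04).

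Of 17 pigment cell genes and GPNMB partners, 7 were tested. The melanocyte genes *Dct*, *Mlana* and *Tyr* were not listed, and *Pmel*, the closest relative of *Gpnmb* and a melanosome fibril protein, averaged 0.919, 0.611 and 0.646 FPM at 6w+dox, 12w+dox and 12w-res. The 2 genes called higher in 12w-res against 12w+dox were those of the integrin subunits *Itga5* (4.67 to 14.6 FPM, 1.59) and *Itgb3* (2.60 to 7.64 FPM, 1.44). With total reads neither was called higher, and neither was called between 6w+dox and 12w+dox.

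The relatives of *Vgll3* had other courses. *Vgll4*, a cofactor that competes with YAP for TEAD, had means of 4.61 FPM ± 2.14 at 6w+dox, 14.8 ± 2.32 at 12w+dox, then 9.02 ± 1.75 in 12w-res. It rose by 1.68 with time on dox and differed by -0.69 in 12w-res against 12w+dox, with a limma adjusted p = 0.0399 but less than the size needed for a call. *Vgll1* averaged 1.12, 0.265 and 0.380 FPM and was called lower at 12w+dox (-1.18), and *Vgll2* was not listed.

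*Yap1*, the Hippo effector that shares TEAD with VGLL3, ran opposite to *Vgll3* at 12w+dox. Its mean went from 14.2 FPM ± 1.27 at 6w+dox through 5.16 ± 2.61 at 12w+dox to 11.6 ± 1.44 in 12w-res, without overlap of 12w+dox with either group. The fitted changes were -1.498 from 6w+dox to 12w+dox (limma adjusted p = 0.00301) and 1.21 in 12w-res against 12w+dox (limma adjusted p = 0.00183). The latter call was lost with total reads and without 12w+dox replicate 3. *Vgll3* and *Yap1* were thus both high in 12w-res, while at 6w+dox *Yap1* was high and *Vgll3* low and at 12w+dox the reverse held.

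**Figure D4:**
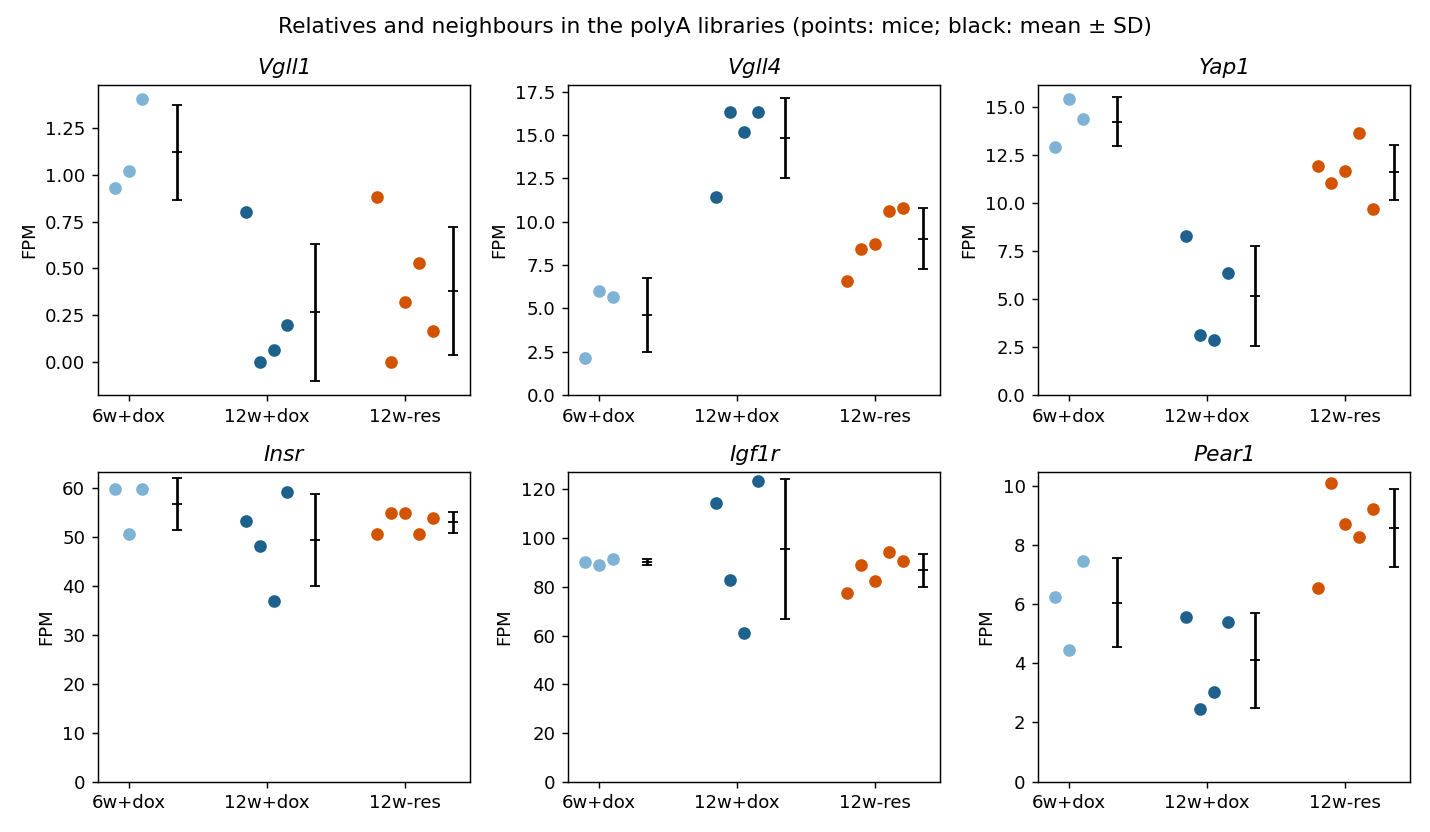
FPM of 3 genes related to *Vgll3* by family or by TEAD binding (*Vgll1*, *Vgll4*, *Yap1*) and of 2 relatives and 1 overlapping neighbour of *Insrr* (*Insr*, *Igf1r*, *Pear1*) in the 12 long-term mice, with black marks for mean ± SD. *Yap1* and *Pear1* are lowest at 12w+dox, *Vgll4* is highest there, and *Insr* and *Igf1r* overlap between all groups.

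Of 16 Hippo pathway regulators, 2 were called higher at 12w+dox against 6w+dox, the kinase cofactor genes *Mob1a* (1.92) and *Mob1b* (1.13), and 1 lower, the cadherin gene *Fat4* (-1.24). In 12w-res against 12w+dox, 3 were called higher and none lower, including the kinase gene *Lats2* (3.46 to 8.36 FPM, 1.25), *Ptpn14* (1.16) and *Amot* (1.03). Their median was -0.15 in the first contrast and 0.30 in the second. The calls in 12w-res numbered 0 with total reads and 1 without 12w+dox replicate 3, and the count of lower calls at 12w+dox was 0 with DESeq2, edgeR or total reads and 3 without 12w+dox replicate 1.

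Of 23 TEAD target genes, none was called higher and 2 were called lower at 12w+dox against 6w+dox, *Cyr61* (-1.05) and *Foxf2* (-1.07), with a median of -0.23. The count of lower calls was 0 with total reads, 4 without 12w+dox replicate 1, 1 without replicate 2 and 0 without replicate 4. In 12w-res against 12w+dox, 10 of 23 were called higher and none lower, with a median of 0.95. These included *Igfbp3*, an IGF binding protein, from 73.0 FPM ± 15.7 to 296 ± 44.98 (2.02, limma adjusted p = 3.75e-07), and the matrix protein gene *Ctgf*, from 25.1 to 60.7 FPM (1.29). When the values were scaled by total reads, where the median of all genes moves by -0.61 in this contrast, 1 was called higher and 1 lower.

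Markers of stroma moved with the same contrast. In 12w-res, 6 of 6 fibroblast markers, 5 of 5 pericyte and smooth muscle markers and 5 of 6 endothelial markers were called higher than at 12w+dox. With total reads these counts were 6, 2 and 0, and without 12w+dox replicate 2 the endothelial count was 3. The fibroblast sum was 80.3 to 308 FPM at 12w+dox and 495 to 1152 in 12w-res. Against 6w+dox, where it was 273 to 296 FPM, 2 of 6 fibroblast markers were called higher. Hormone cell markers moved as well. The sum of other hormone cell markers was 1217 to 13007 FPM at 12w+dox and 17322 to 34949 in 12w-res, with 2 of 8 called higher, 6 above and 2 below 0. For melanotroph and corticotroph markers it was 96627 to 198979 and 459187 to 581522 FPM, with 2 of 6 called higher, 3 above and 3 below 0. *Pomc* alone made up most of these sums, with means of 142046 FPM at 12w+dox and 499903 in 12w-res. The part of these marker shifts in the differences of *Insrr*, *Vgll3*, *Gpnmb* and the TEAD targets was not tested.

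The receptors most like *Insrr* were level over the groups. *Insr*, the insulin receptor, averaged 56.7, 49.3 and 52.9 FPM in the order 6w+dox, 12w+dox and 12w-res, and *Igf1r*, the IGF1 receptor, averaged 90.2, 95.4 and 86.8 FPM. Neither was called in any of the 3 contrasts, with fitted changes for *Insr* of -0.22 at 12w+dox against 6w+dox and 0.12 in 12w-res against 12w+dox. In the short-term experiment their group means stayed within 35.9 to 40.0 FPM for *Insr* and 77.3 to 86.1 FPM for *Igf1r*.

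The gene that overlaps *Insrr* was looked at beside it. *Pear1*, which spans it on the other strand and is named here after its values were seen, had means of 6.04 ± 1.51, 4.10 ± 1.60 and 8.57 ± 1.32 FPM in the same order. Its mice at 6w+dox (4.45 to 7.45 FPM) and at 12w+dox (2.45 to 5.55 FPM) overlapped. The part of *Pear1* reads in the level of *Insrr* was not tested. Whether reads were counted by strand is not given in the sources used here.

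Of 12 insulin and IGF receptors, ligands and binding proteins tested, 1 was called higher and 1 lower at 12w+dox against 6w+dox, *Igf2* (1.39) and *Igfbp5* (-1.32). In 12w-res against 12w+dox, 5 were called higher and none lower, with a median of 0.83, and besides *Igfbp3* these were *Igfbp7* (47.1 to 156 FPM, 1.78), *Igfbp5* (144 to 381 FPM, 1.53), *Igfbp6* (1.48) and *Igf1* (1.05), whose mice overlapped. *Igf2* was higher in 12w-res than at 6w+dox, 48.4 against 10.1 FPM (2.31). *Insrr* was lower in the mice where these binding protein genes were higher.

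Of 17 adaptor and signaling genes of the insulin receptor, 2 were called higher and 1 lower at 12w+dox against 6w+dox, with the transcription factor gene *Foxo3* (1.77) and *Irs2* (1.28) higher and *Grb10*, an inhibitory adaptor, lower (-1.18). In 12w-res against 12w+dox, 1 was called higher, *Grb10* (5.68 to 12.9 FPM, 1.14), and the median was -0.30. With total reads none was called higher and 6 lower, and without 12w+dox replicate 3 none was called higher and 1 lower.

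Of 20 tested genes of the bicarbonate transporter and carbonic anhydrase families, none was called higher and 2 were called lower at 12w+dox against 6w+dox, among them the carbonic anhydrase gene *Car14* (-2.04). In 12w-res against 12w+dox, 3 were called higher, with *Car10* (2.07 to 8.42 FPM, 1.83) and *Slc4a11* (2.79 to 9.39 FPM, 1.65), and 2 lower, with the anion exchanger gene *Slc4a1* (1.89 to 0.104 FPM, -1.88). The medians were 0.02 and 0.03, close to the -0.01 and -0.00 over all genes, in the contrasts where *Insrr* was called higher and lower.

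**Figure D5:**
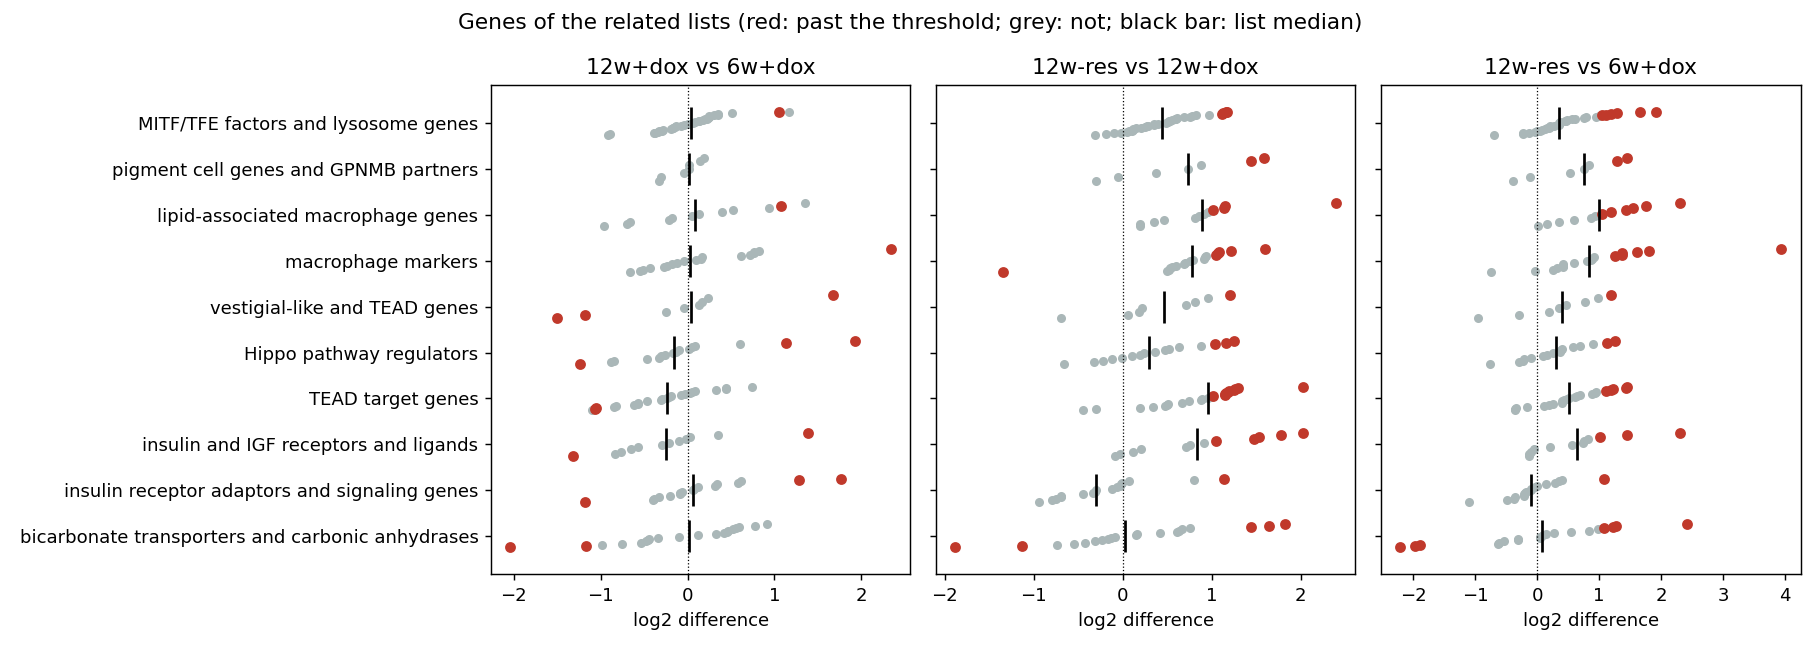
Fitted log2 difference of each gene of the related lists and of the macrophage markers in the 3 long-term contrasts, with called genes in red, other genes in gray and the list median as a black bar. Most red points in the 2 contrasts of 12w-res lie above 0, with 10 of 23 TEAD target genes called higher against 12w+dox.

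Over all related lists, 144 genes were tested in the long-term experiment. At 12w+dox against 6w+dox, 8 were called higher and 9 lower, where 3.15% of all genes were called higher and 4.04% lower. In 12w-res against 12w+dox, 29 were called higher and 2 lower, where 6.24% of all genes were called higher and 5.04% lower. Against 6w+dox, 29 were called higher and 3 lower in 12w-res, where 5.81% of all genes were called higher and 5.82% lower. Counts in 12w-res against 12w+dox depended on the scaling: with total reads, none of the macrophage markers, 1 of the lipid-associated macrophage genes, none of the MITF/TFE and lysosome genes and 2 of the insulin and IGF genes were called higher. Without the 12w-res mouse at 44.6 FPM of *Gpnmb*, 2 lipid-associated macrophage genes and 3 macrophage markers were called higher in that contrast. Without 12w+dox replicate 3, 6 TEAD target genes and 2 macrophage markers were, and without 12w+dox replicate 4, 2 lipid-associated macrophage genes. Of 127 such genes tested in the short-term experiment, the calls were *Slc4a11* at 3d-dox (-1.01) and *Axl* at 5d-dox (-1.09), both lower than at 16w+dox, and none by limma at 1d-dox or between 5d-dox and 1d-dox. Neither call was stable: with the compared groups alone, with a pseudocount of 1 or without either of 16w+dox replicates 1 and 2, no gene of the bicarbonate list was called lower at 3d-dox and none of the lipid-associated list at 5d-dox.

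The genes whose levels ran most like each member over the 12 long-term mice were found by Pearson r on the log2 scale among 13878 genes, as a description of mice that share groups. For *Gpnmb* they were *Mmp12*, the macrophage elastase (0.956), *Wdr36* (0.917), *Plin2*, a lipid droplet coat protein (0.914), and *Lyplal1* (0.911). Over the 13 short-term mice the values were 0.480 for *Mmp12*, 0.308 for *Wdr36*, -0.10 for *Plin2* and -0.04 for *Lyplal1*.

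For *Vgll3* the closest were *Adgra2* (0.964), *Sema6b*, a semaphorin (0.958), *Tmem132d* (0.956), *Slc6a15*, an amino acid transporter (0.953), and *Tbc1d15* (0.953). Over the short-term mice, *Sema6b* (0.633), *Slc6a15* (0.578), *Tmem132d* (0.565) and *Tbc1d15* (0.457) had positive values and *Adgra2* a negative one (-0.57). For *Insrr* they were *Homer3*, a synaptic scaffold protein (0.972), *Tatdn2* (0.969), *Gtf3c4* (0.960), *Dnajc27* (0.959) and *Kbtbd2* (0.958), with short-term values between -0.22 and 0.222.

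Between the members, r over the long-term mice was 0.739 for *Gpnmb* and *Vgll3*, 0.081 for *Gpnmb* and *Insrr*, and 0.191 for *Vgll3* and *Insrr*. Over the short-term mice the values were 0.311, 0.424 and 0.126. The pair that was high in 12w-res thus had the higher value in the long-term mice, a pattern that the group means carry.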

How the data were processed

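RNA was sequenced from pituitaries or pituitary tumors of 25 sh*Rb* mice, 12 in the long-term and 13 in the short-term experiment, grouped by the sample labels. The authors aligned reads with STAR to mm10 and counted them on RefSeq genes. They deposited a signal per gene and mouse, FPM, fragments scaled by DESeq2 size factors, after leaving out genes with few reads. Whether counting used strand is not given in the sources used here. Each deposited value divided by the step of its library came out whole (100% of values within 0.1 read), which gave back the reads. Precision is limited by the spread between the mice of a group as well as by 9573101 to 28968476 reads on genes per mouse. The read range of *Gpnmb* is given where it is low. Lines that name no gene, 4 in the short-term table and 2 in the long-term table, were left out of all totals, and in the short-term libraries they held 68.8 to 75.0% of reads.

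A gene was tested if, in any group, over 50% of mice reached 10 reads (15315 long-term, 13958 short-term). All groups of a table entered 1 limma trend fit on log2(FPM + 0.5), with Benjamini-Hochberg adjustment over all genes tested and a call at an adjusted p below 0.05 with a change above 1 on the log2 scale. Exact two-sided permutation tests over mice were run for single genes. The scripts were tested on simulated data. Alternatives were other pseudocounts (0.1, 1), filters and scalings, edgeR quasi-likelihood, DESeq2, the compared groups alone, sex as a covariate, females only, the replicate number as a block, and leaving out each mouse. Symbols matched RefSeq for 14634 of 15315 and 13474 of 14007 genes. Sequences came from RefSeq (GRCm38.p6) and the GENCODE transcripts (GRCm38). Software was R 4.3.3, limma 3.58.1, edgeR 4.0.16, DESeq2 1.42.0 and Python 3.11.15.

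The members and the gene lists were chosen with earlier results of these data known. Genes named were *Rb1*, GFP, the members with their paralogs and neighbours, up to 4 genes per list and contrast with the largest change among called genes whose mice did not overlap, the 5 genes of highest r per member, and those next to the members by fitted rise. Of the genes this names, 2 are not reported here. Further genes (*Mki67*, *Pear1*, *Yap1*, *Mitf*, *Cd63*, *Ctsz*, *Tfe3*, *Igf1*, *Irs2*, *Fat4* and *Pomc*) were named after their values were seen. Replicate mice were separate animals, and no pair agreed within sampling noise.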

Additional observations from a re-analysis of the deposited data

Results flagged for a closer look

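The 3 genes were looked at in each group of 4 or 5 mice, which gave 9 sets of values. Of these, 2 held a mouse far from the others by Dixon's criterion, applied to FPM and not to the log2 values of the fits. Its rate of about 1 in 20 groups by chance holds for normally distributed values, which was not checked for FPM. *Gpnmb* was at 44.6 FPM in 12w-res replicate 3, a female, with a gap to the next mouse of 0.824 of the group's range. Without it the 12w-res mean was 6.60 FPM ± 3.36 (SD, n = 4), and that mouse also had the highest macrophage marker sum, 766 FPM. *Insrr* was at 2.01 FPM in 12w-res replicate 2, a male, with a gap of 0.785 of the range. Without it the mean was 0.845 FPM ± 0.127 (n = 4), and that mouse still lay below all 12w+dox mice.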

How the results depend on the processing

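The difference of *Insrr* in 12w-res against 12w+dox ranged from -3.98 to -2.59 on the log2 scale over the alternatives and from -3.85 to -2.90 with a mouse left out, and was called in each. The higher levels in 12w-res against 6w+dox were called in each alternative run, at 3.11 to 6.45 for *Gpnmb* and 2.83 to 4.09 for *Vgll3*. The filter of 10 reads in every mouse dropped both genes and gave no value for them. Between 6w+dox and 12w+dox the change of *Gpnmb* came to 4.29 with a pseudocount of 0.1, 5.23 with edgeR and 5.22 with DESeq2, since it starts from 0 to 5 reads. Scaling by total reads, which moved the median of all genes by 0.29, -0.61 and -0.33 in the 3 long-term contrasts, gave -0.17 for *Vgll3* in 12w-res against 12w+dox.

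For *Vgll3* at 3d-dox against 16w+dox, DESeq2 gave -1.10 and was the only alternative that passed the threshold. With a mouse left out the difference ranged from -1.28 to -0.79 and passed the threshold only without 3d-dox replicate 2. Changes near 0 turned sign: *Insrr* at 3d-dox was 0.0122 with a pseudocount of 0.1 and 0.13 with total reads, and *Gpnmb* at 5d-dox was -0.0247 with edgeR and -0.0178 with DESeq2. With a mouse left out, *Gpnmb* ranged from -0.77 to 0.11 at 3d-dox and -0.34 to 0.36 at 5d-dox, and *Insrr* from -0.15 to 0.75 at 1d-dox, -0.50 to 0.40 at 3d-dox, -0.27 to 0.64 at 5d-dox and -0.43 to 0.19 for 5d-dox against 1d-dox. The cause was not tested.

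Replicate numbers did not pair the mice: deviations correlated above 0.1 in 1 of 10 same-number pairs in the long-term and 3 of 18 in the short-term experiment. With the replicate number as a block, *Insrr* in 12w-res against 12w+dox was -3.12 (limma adjusted p = 8.21e-04), and no call for a member changed, although 1 gene in all was called at 3d-dox against 18 without it. Over all genes, calls from 6w+dox to 12w+dox numbered 1102 (598 to 1452 over alternatives), and in 12w-res against 12w+dox 1727, or 3608 with total reads. Short-term calls were 6, 18 and 27 at 1d-dox, 3d-dox and 5d-dox, against 113, 104 and 140 with DESeq2, so the short-term percentages of genes called depend on the tool. With a mouse left out they ranged from 0 to 11, 2 to 39 and 2 to 31, and without 6w+dox replicate 3 the calls from 6w+dox to 12w+dox numbered 1674.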
